A study of Mus musculus with 12 samples.

Results

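Macrophages that had met lipopolysaccharide (LPS) before were set against macrophages that met it for the first time, both after a last dose of 100 ng/ml. The comparison rests on 6 of the 12 arrays of the series, chosen by the titles that give a last dose of LPS, and on 34945 of the 45101 probe sets, those with exactly 1 gene symbol, which stand for 18193 genes. Restimulated cells received 100 ng/ml LPS for 18 h, then new medium, 2 h of rest and 100 ng/ml LPS again, and are the tolerant cells. LPS once cells had the same change of medium and the same rest with no earlier dose, then received 100 ng/ml LPS, and are the naive cells. The other 6 arrays, of cells that were pretreated and rested without a last dose and of untreated cells, entered the same fit and gave the level at rest. All cells came from bone marrow of C57Bl/6 mice and were grown into macrophages with M-CSF, the growth factor that macrophages depend on. There were 3 biological replicates per group, named A to C, and arrays of 1 letter were treated as a pair. The sources used here do not give the length of the last stimulation, the age and sex of the mice or whether a letter stands for 1 animal, so p-values measure the spread between these cultures.

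LPS coats Gram-negative bacteria, and macrophages sense it through Toll-like receptor 4, which signals to NF-kappaB, MAP kinases and interferon regulatory factors. Cells that have met LPS enter a state called tolerance, in which many cytokine genes answer a repeated dose weakly while other genes answer it in full or more strongly. In mouse macrophages this state is known to be written partly into chromatin and partly into signalling inhibitors that the first dose induces.

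Each probe set has 1 intensity per array, on a linear scale. The labels call the cells macrophages, and all 10 macrophage markers were measured, with summed intensities of 62084 to 74251 units on restimulated arrays and 61346 to 63671 on LPS once arrays. Of 34 measured markers of other cell types, 19 stayed under 50 units on all 12 arrays. Collagens and other fibroblast markers summed to 2388, 5152 and 211 units in restimulated replicates A, B and C, against 3255, 6422 and 284 in LPS once cells, so they differed more between letters than between the groups. Neutrophil markers, among them Ngp, a granule protein, summed to 217, 434 and 433 units in restimulated cells and to 292, 1498 and 533 in LPS once cells. Of the 34 markers limma called 1 lower, Ngp, with 45.1, 121 and 82.4 units in restimulated cells, against 96.7, 959 and 291 in LPS once cells (-1.78 ± 0.42), and not without restimulated B or C or LPS once B or C. The part of these cells in the results was not tested. In RNA of whole cultures, fewer cells of a type and less RNA per cell cannot be told apart.

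The restimulated replicate C array was dim. It had a mean of 246.7 units and a 75th percentile of 119.9, whereas the 11 others had means of 310.04 to 317 and 75th percentiles of 156.1 to 207. Its median of 31.41 lay within the 29.72 to 31.65 of the others. Over the 6229 genes with a mean between 100 and 1000 units, the median difference between restimulated and LPS once arrays was 0.10 on the log2 scale for letter A, 0.23 for letter B and -0.24 for letter C. Letter C thus lay below 0 where the other letters lay above it. Counts without this array stand beside most counts below, and differences without it are given for some genes only.

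**Figure D1:**
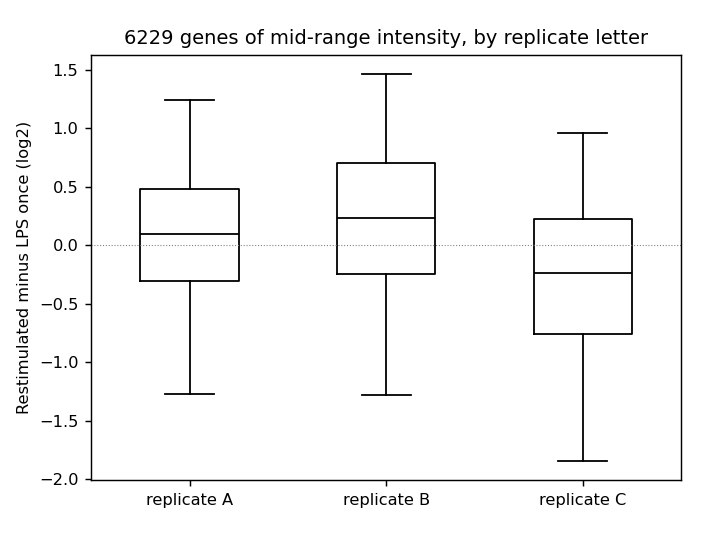
Differences between the restimulated and the LPS once array of each replicate letter, as log2(intensity + 16), over 6229 genes of mid-range intensity. The line in each box is the median, the box spans the quartiles and the whiskers the 5th to 95th percentiles. The medians are 0.10 for A, 0.23 for B and -0.24 for C, the letter of the dim restimulated array.

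After LPS, tolerant and naive macrophages differed at 1152 of 18193 genes (6.33%). Limma called 482 genes higher in restimulated cells, 2.65% of all, and 670 lower, 3.68% of all, at a Benjamini-Hochberg adjusted p under 0.05 and at least 2-fold. Differences are log2 values of restimulated minus LPS once cells, after 16 units were added to each intensity, which understates the change of dim genes. In the fit of all 12 arrays the decreases were the wider ones, with 44 lower and 6 higher genes at a log2 difference of 3 or more in size. The median was 1.30 among higher genes and -1.50 among lower ones. These widths were not taken without the dim array, so its part in them was not tested. All restimulated arrays lay above all LPS once arrays for 2121 genes (11.7%) and below them for 2561 (14.1%), called or not. Counted by probe sets, 676 were higher (1.93%) and 1248 lower (3.57%).

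The dim array moved the balance of higher and lower genes. Without restimulated replicate C 759 genes were higher (4.17%) and 540 lower (2.97%), so that higher genes made up 58.4% of the called ones, against 41.8% with it, and 57.4% when limma weighted the arrays by their quality. The 475 genes called higher in both made up 98.5% of the 482 and 62.6% of the 759. The 503 genes called lower in both made up 75.1% of the 670 and 93.1% of the 540. Without restimulated replicate B 308 genes were higher, and no other single array moved either count by over 1.5 times. In each of the 12 fits with 1 array left out 260 of the higher and 391 of the lower genes kept their call. On the 6 arrays alone, which leave few degrees of freedom, 65 genes were higher and 97 lower.

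**Figure D2:**
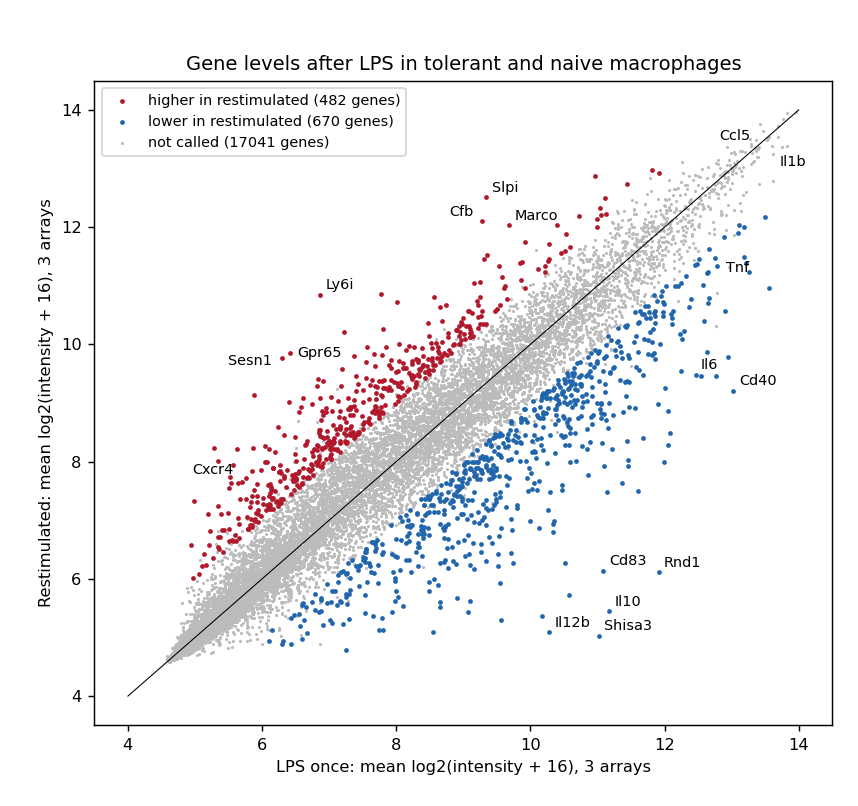
Mean log2(intensity + 16) of each of 18193 genes in restimulated cells (vertical axis) against LPS once cells (horizontal axis), 3 arrays each. Red points are the 482 genes called higher in restimulated cells, blue points the 670 called lower, grey points the rest, and the line marks equal levels. Of the named genes far below the line, some, such as Il10 and Shisa3, lie near the floor of the scale in restimulated cells. Others, such as Cd40 and Il6, lie well above it.

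The widest decreases belonged to genes that were bright in LPS once cells, where all 20 lay above every untreated array. Shisa3, a membrane protein of the Shisa family, had 22.8, 14.5 and 13.6 units in restimulated replicates A, B and C, against 1679, 2109 and 2468 in LPS once cells. The restimulated arrays stood close to the 11.2 to 12.3 units of untreated cells, and the log2 difference was -5.99 ± 0.15 (SE, n = 3 per group, limma adjusted p = 3.05e-06). Rnd1, a small GTPase that loosens the actin skeleton, had 29.7, 76.1 and 62.8 units in restimulated cells and 3366, 4479 and 3742 in LPS once cells. No array of the 2 groups came near the other group, and the difference was -5.80 ± 0.14 (limma adjusted p = 3.05e-06). Rhou, another small GTPase, had 74.2, 69.0 and 44.6 units in restimulated cells, against 1212, 2518 and 993 in LPS once cells, a difference of -4.24 ± 0.19 (limma adjusted p = 7.21e-05). Ezr encodes ezrin, which ties the actin skeleton to the membrane, and had 432, 167 and 159 units in restimulated cells, against 2878, 2718 and 2749 in LPS once cells, with a difference of -3.53 ± 0.31.

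Among genes whose groups did not overlap, the 20 widest decreases ran from -3.53 to -5.99. All 20 kept their call without restimulated replicate C, and 19 kept it without any single array. The exception was AA467197, with 37.2, 425 and 42.7 units in restimulated cells and 1635, 1119 and 1129 in LPS once cells, where replicate B of the restimulated cells stood far above A and C. Its difference of -3.54 ± 0.71 lost its call without restimulated A (adjusted p = 0.0559), LPS once A (0.0531) or LPS once C (0.0704). For 11 of the 20, the mean in restimulated cells was under 100 units, where a fold is compressed by the added 16 units. Errfi1, a feedback inhibitor of the epidermal growth factor receptor, had 319, 630.1 and 123 units in restimulated cells, against 2532, 5871 and 5116 in LPS once cells, and was 13.7-fold lower with 16 units added. Hivep3, a zinc finger protein that binds kappaB-like DNA, had 282, 81.3 and 183 units in restimulated cells, against 1249, 2430.5 and 3756 in LPS once cells (-3.66 ± 0.44, limma adjusted p = 0.00212).

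**Figure D3:**
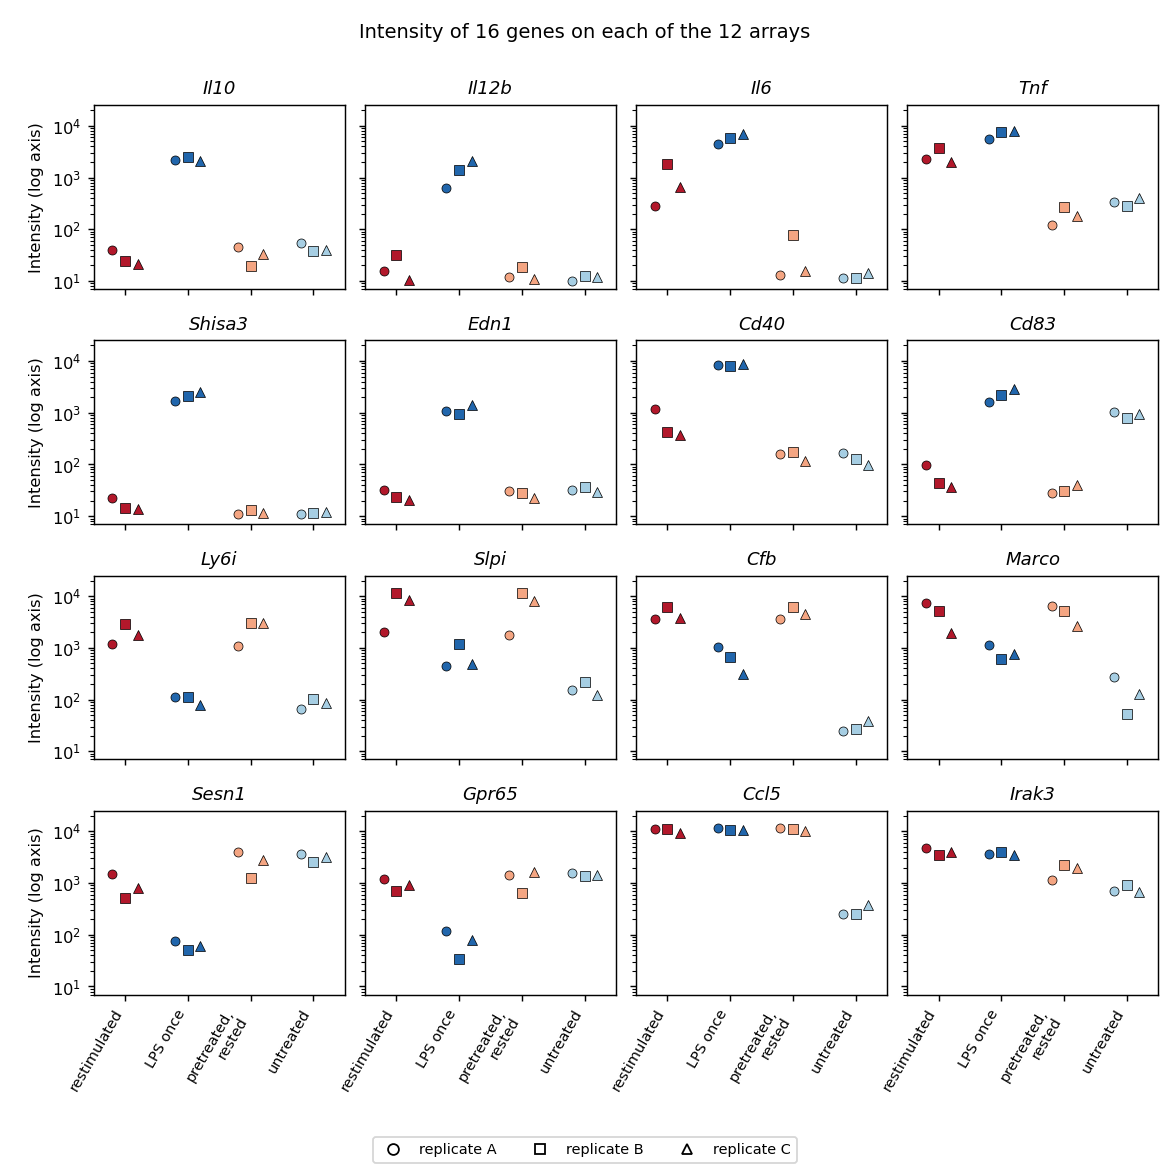
Intensity on a log axis of 16 genes on all 12 arrays, with restimulated, LPS once, pretreated and rested, and untreated cells from left to right, and 1 point per replicate A, B and C. In the top 2 rows the restimulated points lie below the LPS once points, in the third row and for Sesn1 and Gpr65 they lie above them, and for Ccl5 and Irak3 the groups overlap.

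The widest increases included genes that pretreated cells already held at a high level before the last dose. They also included genes that were dimmest on the LPS once arrays. Ly6i, a surface protein of the Ly6 family, had 1205, 2849 and 1774 units in restimulated cells, against 114, 111 and 80.2 in LPS once cells (3.98 ± 0.32, limma adjusted p = 0.000511). Pretreated and rested cells held 1073, 3024 and 3071 units and untreated cells 66.3, 102 and 85.9, so the 2 pretreated groups were high and the 2 others low. Slpi, a secreted inhibitor of neutrophil proteases, had 2044, 11599 and 8351 units in restimulated cells, against 442, 1169 and 489 in LPS once cells (3.17 ± 0.49, limma adjusted p = 0.00569). Replicate A was the lowest of the restimulated arrays and still lay above all LPS once arrays. Bst1, a surface enzyme of the ADP-ribosyl cyclase family, had 621, 1365 and 188 units in restimulated cells, against 139, 28.7 and 13.7 in LPS once cells, and its difference of 3.26 ± 0.60 narrowly lost its call without LPS once replicate C (adjusted p = 0.0501). Smpdl3b, a membrane enzyme known to restrain Toll-like receptor signalling in mouse macrophages, had 658, 1979 and 1244 units in restimulated cells, against 191, 108 and 114 in LPS once cells (3.00 ± 0.52, limma adjusted p = 0.00901).

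Sesn1 had the other pattern. It encodes a sestrin, a stress-induced protein that restrains growth signalling, and had 1487, 522 and 815 units in restimulated cells, against 77.0, 51.4 and 61.2 in LPS once cells (3.48 ± 0.24, limma adjusted p = 0.000275). Pretreated and rested cells held 3917, 1250.4 and 2824 units and untreated cells 3687, 2563 and 3249. The LPS once arrays were thus the lowest, and all restimulated arrays lay under all untreated arrays. Gpr65, a receptor that senses protons, had 1174, 688 and 921 units in restimulated cells, against 116, 33.7 and 80.2 in LPS once cells (3.43 ± 0.25, limma adjusted p = 0.000343), and 1394 to 1533 in untreated cells. Zfp36l2, which binds AU-rich messenger RNAs, had 2018, 1427 and 1633 units in restimulated cells, against 409.7, 308 and 107 in LPS once cells (2.72 ± 0.38), and 4611 to 5172 in untreated cells. Mknk2, a kinase that acts on the translation factor eIF4E, had 760.1, 1155 and 772 units in restimulated cells, against 130.4, 166 and 155 in LPS once cells (2.43 ± 0.18, limma adjusted p = 0.000387). Cd300lb, an activating receptor of myeloid cells, had 1834, 1226 and 784 units in restimulated cells, against 487, 134 and 130.4 in LPS once cells (2.46 ± 0.37), and 4411 to 4584 in untreated cells. Of the 20 widest increases, from 2.40 to 3.98, all untreated arrays lay above all LPS once arrays for 13 genes, and all pretreated and rested arrays did so for 20. All 20 kept their call without restimulated replicate C, and 18 kept it without any single array, the exceptions being Bst1 and Arg1.

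Promoter windows were read for the genes with the widest changes, which share a direction because they were chosen by it. Each window holds 250 bases before and 50 after the annotated start, from RefSeq on GRCm38.p6. Windows were found for 12 of the 20 widest increases and 11 of the 20 widest decreases. They were searched on both strands for the kappaB consensus, for the core bound by interferon regulatory factors, AANNGAAA, and for the AP-1 site, TGACTCA, where N is any base and no form contains another. A form was found for 4 genes of each direction. The 4 shown are those of the gene with the widest change for each form and direction found, given 5′ to 3′ on the strand of the gene, with the match in capitals.
Gpr65, higher, chr12:98268385-98268684, plus strand, interferon regulatory factor core on the opposite strand: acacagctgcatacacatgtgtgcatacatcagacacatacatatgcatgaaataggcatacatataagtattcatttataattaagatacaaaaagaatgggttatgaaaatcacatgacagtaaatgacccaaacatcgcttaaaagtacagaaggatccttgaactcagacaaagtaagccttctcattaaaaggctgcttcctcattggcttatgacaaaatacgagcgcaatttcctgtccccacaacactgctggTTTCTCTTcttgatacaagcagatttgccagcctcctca
Smpdl3b, higher, chr4:132757122-132757421, minus strand, kappaB consensus: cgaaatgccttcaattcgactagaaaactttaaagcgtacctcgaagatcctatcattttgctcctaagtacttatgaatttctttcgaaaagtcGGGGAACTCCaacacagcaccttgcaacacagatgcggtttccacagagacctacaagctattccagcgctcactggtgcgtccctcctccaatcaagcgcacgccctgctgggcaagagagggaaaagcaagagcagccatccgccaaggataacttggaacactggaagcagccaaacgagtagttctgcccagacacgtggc
Edn1, lower, chr13:42301226-42301525, plus strand, interferon regulatory factor core on the opposite strand: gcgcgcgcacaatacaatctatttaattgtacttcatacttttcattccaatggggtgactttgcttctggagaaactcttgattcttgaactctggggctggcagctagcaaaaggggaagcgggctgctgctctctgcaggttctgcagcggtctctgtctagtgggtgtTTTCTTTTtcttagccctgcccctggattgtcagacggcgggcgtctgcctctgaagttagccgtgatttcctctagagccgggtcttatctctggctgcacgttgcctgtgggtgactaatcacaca
AA467197, lower, chr2:122637637-122637936, plus strand, AP-1 site: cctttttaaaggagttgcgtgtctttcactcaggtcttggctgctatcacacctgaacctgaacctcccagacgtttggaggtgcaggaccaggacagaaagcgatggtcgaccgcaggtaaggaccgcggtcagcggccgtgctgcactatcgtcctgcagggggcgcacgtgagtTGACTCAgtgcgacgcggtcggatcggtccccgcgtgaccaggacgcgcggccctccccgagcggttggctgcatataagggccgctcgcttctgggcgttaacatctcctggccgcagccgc

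Over all called genes with a window, the kappaB consensus stood in 39 of 399 higher genes (9.77%) and 83 of 533 lower genes (15.6%), against 11.6% of genes that were not called. The interferon regulatory factor core stood in 16.5% of higher and 24.95% of lower genes, against 22.8% of the rest. The AP-1 site stood in 4.76% of higher and 7.88% of lower genes, against 5.25% of the rest. In these shares a gene counted if any of its windows held the match. Counted by window over all 32851 windows, the shares were 8.46% for the kappaB consensus, 23.9% for the interferon regulatory factor core and 5.20% for the AP-1 site. The shares by window and by gene are unlike measures. A match is a run of letters in the window and was not tested as a site.

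Inflammatory cytokines were the list with the greatest share of decreases, among 26 lists chosen with earlier results of these data known. Of 25 measured members 14 were lower and 0 higher in restimulated cells, or 12 and 0 without restimulated replicate C, against 3.68% and 2.65% of all genes. Without LPS once C 9 were lower, and without restimulated A 1 was higher. At an unadjusted p under 0.05, limma placed 16 lower and 2 higher. At that p 15.6% of all genes were lower and 14.6% higher, the shares for later counts after LPS at an unadjusted p. Later counts of calls after LPS are to be read against the 3.68% lower and 2.65% higher of all genes. The list's median difference was -1.33, against -0.0027 over all genes. Il10, which dampens inflammation, had 40.5, 24.3 and 20.9 units in restimulated cells, against 2206, 2545 and 2132 in LPS once cells. The groups lay 52.6-fold apart with 16 units added, a log2 difference of -5.72 ± 0.17 (limma adjusted p = 8.86e-06), and restimulated cells were at the 38.3 to 53.4 units of untreated cells or below. Il12b, the subunit shared by interleukins 12 and 23, had 15.5, 31.5 and 10.7 units in restimulated cells, against 632, 1380.1 and 2093 in LPS once cells (-5.18 ± 0.34, limma adjusted p = 0.000248).

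Il6 and Tnf, the classic products of LPS-treated macrophages, were lower in restimulated cells without falling to the untreated level. Il6, which drives the acute phase response, had 282, 1829.7 and 650.4 units in restimulated cells, against 4394, 5878 and 6919 in LPS once cells (-2.98 ± 0.48, limma adjusted p = 0.0066). Restimulated cells remained well above the 11.3 to 14.2 units of untreated cells, and replicate B was the highest of them. Tnf, which activates endothelium and other macrophages, had 2241, 3719 and 2009.7 units in restimulated cells, against 5586, 7702 and 8019 in LPS once cells (-1.45 ± 0.26, limma adjusted p = 0.00939), and untreated cells had 283 to 394. The decrease of Tnf was about the size of the median member, and the groups did not overlap. Il15, a growth factor of natural killer and memory T cells, had 355, 253 and 62.1 units in restimulated cells, against 4034, 2197 and 2018 in LPS once cells (-3.73 ± 0.42), and replicate C was the lowest of the restimulated arrays. Without that array the difference was -3.15 (limma adjusted p = 0.000712). Csf2, the granulocyte and macrophage growth factor, had 29.3, 31.8 and 46.4 units in restimulated cells, against 76.4, 595 and 1935 in LPS once cells (-3.22 ± 0.78, limma adjusted p = 0.0309). LPS once replicate A was far below B and C, and the call was lost without restimulated A, B or C, LPS once B or C, pretreated and rested B or untreated B, with an adjusted p of up to 0.108.

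Growth factors and peptides that act on vessels had 5 of 17 measured members lower and 0 higher (at an unadjusted limma p under 0.05, 10 and 0), a median of -0.54, and the same counts of calls without the dim array. Edn1, the precursor of the vasoconstrictor endothelin 1, had 31.6, 23.7 and 20.9 units in restimulated cells, against 1068, 966 and 1427 in LPS once cells (-4.81 ± 0.16, limma adjusted p = 1.66e-05). Adm, which encodes the vasodilator adrenomedullin, had 24.2, 21.1 and 25.1 units in restimulated cells, against 484, 1093 and 766 in LPS once cells (-4.26 ± 0.23, limma adjusted p = 0.00011). Restimulated cells were near the untreated arrays for both peptides, which held 29.1 to 36.1 units of Edn1 and 13.4 to 22.3 of Adm. Pdgfb and Pdgfa, the chains of platelet-derived growth factor, differed by -3.08 ± 0.55 and -2.54 ± 0.22. Vegfa, which drives vessel growth, had 219, 224 and 85.1 units in restimulated cells, against 517, 531 and 272 in LPS once cells (-1.29 ± 0.19), and untreated cells had 339 to 954.

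Chemokines had 9 of 27 members lower and 0 higher, or 8 and 0 without restimulated replicate C, and 4 were lower without LPS once A or without LPS once C. The median was -1.09. At an unadjusted p under 0.05 limma placed 17 lower and 1 higher. Ccl4, which attracts monocytes and T cells, had 2430.4, 1843 and 1751 units in restimulated cells, against 12296, 11242 and 12728 in LPS once cells (-2.59 ± 0.17, limma adjusted p = 0.000248). The restimulated arrays lay between the 308 to 462 units of untreated cells and the LPS once arrays. Cxcl11, which attracts activated T cells, had 128, 92.0 and 27.2 units in restimulated cells, against 1679, 233 and 528 in LPS once cells (-2.80 ± 0.60), and LPS once replicate A stood far above B and C. Its call was lost without LPS once A (adjusted p = 0.0516) or C (0.0822). Ccl2, which attracts monocytes, had 559.7, 839 and 159 units in restimulated cells, against 2181, 1931 and 1175 in LPS once cells (-1.96 ± 0.39), and lost its call without LPS once A (adjusted p = 0.0535) or C (0.0699).

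Among cytokine and chemokine receptors 7 of 34 were lower and 1 higher, or 4 and 2 without the dim array, with a median of -0.16. Ccrl2, a receptor that binds chemerin without signalling, had 386, 447 and 196 units in restimulated cells, against 2826, 3155 and 3852 in LPS once cells (-3.26 ± 0.26, limma adjusted p = 0.000482). Il17ra, the receptor of interleukin 17, and Il4ra, that of interleukins 4 and 13, differed by -2.29 ± 0.21 and -2.28 ± 0.25. Il15ra, the chain that presents interleukin 15, had 114, 184 and 84.5 units in restimulated cells, against 866, 343 and 409.9 in LPS once cells (-1.90 ± 0.32), so that ligand and receptor chain of interleukin 15 were both lower. The higher member was Cxcr4, the receptor of Cxcl12, with 84.4, 455 and 182 units in restimulated cells, against 27.8, 51.9 and 38.2 in LPS once cells (1.95 ± 0.38, limma adjusted p = 0.0138). Both groups were far under the 2525 to 3319 units of untreated cells, and the call was lost without LPS once B (adjusted p = 0.0517) or C (0.0630).

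Costimulatory and adhesion molecules, with which macrophages engage T cells and vessel walls, had 11 of 22 members lower and 1 higher, or 8 and 1 without restimulated replicate C, with a median of -1.16. Cd40, through which T cells activate macrophages, had 1181, 428 and 376 units in restimulated cells, against 8219, 7997 and 8799 in LPS once cells (-3.82 ± 0.31, limma adjusted p = 0.00051). Replicate A was the highest of the restimulated arrays and still under the lowest LPS once array. Cd83, found on mature dendritic cells, had 97.4, 43.7 and 36.0 units in restimulated cells, against 1604, 2211 and 2847 in LPS once cells (-4.95 ± 0.31, limma adjusted p = 0.000221). Unlike most members it was already lower at rest, with 27.9, 30.1 and 40.6 units in pretreated and rested cells, against 1040.1, 794 and 961 in untreated cells. Vcam1, to which leukocytes adhere, had 89.7, 29.6 and 15.1 units in restimulated cells, against 1316, 1354 and 1901 in LPS once cells (-4.84 ± 0.41). Tnfsf9, a ligand that costimulates T cells, had 325, 372 and 329.9 units in restimulated cells, against 2414, 5422 and 6184 in LPS once cells (-3.60 ± 0.33), and Slamf1, a receptor of lymphocytes and macrophages, differed by -3.06 ± 0.21. The higher member was Itgam, an integrin chain of myeloid cells, with 5681, 5644 and 4145 units in restimulated cells, against 2009, 2506 and 1809.9 in LPS once cells (1.28 ± 0.11, limma adjusted p = 0.000543).

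Inhibitors of Toll-like receptor signalling, a list that holds many genes known to be induced by LPS itself, had more lower than higher members in the tolerant cells. Of 30 measured members 13 were lower and 3 higher, or 12 and 4 without the dim array, with a median of -0.83. Dusp2, a phosphatase of MAP kinases, had 300.4, 112 and 129 units in restimulated cells, against 3708, 2789.7 and 2913 in LPS once cells (-4.12 ± 0.28, limma adjusted p = 0.000266). Zfp36, which encodes tristetraprolin and speeds the decay of Tnf messenger RNA, had 2013, 1131 and 1473 units in restimulated cells, against 6604, 8354 and 8023 in LPS once cells (-2.34 ± 0.19, limma adjusted p = 0.00052). Cish, a suppressor of cytokine signalling, Bcl3, a nuclear IkappaB protein, and Dusp16, another MAP kinase phosphatase, differed by -2.87 ± 0.33, -2.22 ± 0.26 and -2.06 ± 0.24. Tnfaip3, which encodes the ubiquitin-editing enzyme A20, had 2332, 3383 and 2414 units in restimulated cells, against 8061, 10315 and 10279 in LPS once cells (-1.82 ± 0.39, limma adjusted p = 0.0198). Its groups did not overlap, and the call was lost without restimulated A or B or any of the LPS once arrays, with adjusted p from 0.0516 to 0.0826.

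The 3 higher members of that list were 2 phosphatases and an inhibitory receptor. Inpp5d, the lipid phosphatase SHIP-1, had 1878, 1728 and 1724 units in restimulated cells, against 220.1, 374 and 578 in LPS once cells (2.24 ± 0.27, limma adjusted p = 0.00205), and 3400.3 to 3912 in untreated cells. Pilra, an inhibitory receptor of myeloid cells, had 2846, 2930.1 and 2579.7 units in restimulated cells, against 721, 867 and 373 in LPS once cells (2.14 ± 0.27, limma adjusted p = 0.00245), and 119 to 229 in untreated cells. Ptpn6, the tyrosine phosphatase SHP-1, lay at the 2-fold minimum with 1.01 ± 0.13, and fell short of it without restimulated A (0.92) or LPS once C (0.87). Irak3, which blocks the kinases that signal below Toll-like receptors and is a known brake of tolerant cells, had 4792, 3528 and 4035 units in restimulated cells and 3588, 3927 and 3504 in LPS once cells. The groups overlapped, and the difference was 0.15 ± 0.23 (limma adjusted p = 0.726), with the opposite sign, -0.08, without restimulated A.

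Of the signalling path from Toll-like receptor 4, 3 of 27 measured genes were lower and 0 higher, also without the dim array (at an unadjusted limma p under 0.05, 15 and 2), with a median of -0.56. Without restimulated A 5 were lower. The lower genes were Rel, an NF-kappaB subunit, with 145, 138 and 115 units in restimulated cells, against 658, 834 and 1231 in LPS once cells (-2.59 ± 0.18, limma adjusted p = 0.000325), Map3k8, a kinase that activates ERK (-2.14 ± 0.18), and Tab2, an adaptor of the kinase TAK1 (-1.20 ± 0.16). The receptor gene Tlr4 had 469.9, 677 and 263 units in restimulated cells and 372, 548 and 401 in LPS once cells, a difference of 0.01 ± 0.24 (limma adjusted p = 0.981) with overlapping groups, and untreated cells had 729 to 960.0. The co-receptor Cd14 had 10025, 9772 and 9464 units in restimulated cells and 12008, 13253 and 12267 in LPS once cells (-0.36 ± 0.17, limma adjusted p = 0.227). The sign of the Tlr4 difference turned without restimulated A (-0.11), restimulated B (-0.21) or LPS once A (-0.07). The lowest LPS once array of Cd14 lay above all restimulated arrays, and the difference did not pass the test.

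Immediate-early and stimulus-induced transcription factors had 6 of 31 members lower and 0 higher, also without the dim array (at an unadjusted limma p under 0.05, 17 and 2), with a median of -0.65. Without LPS once A 11 were lower and 1 higher. Ier2, a nuclear protein induced within minutes of many stimuli, had 286, 296 and 259 units in restimulated cells, against 1479, 2185 and 1894 in LPS once cells (-2.64 ± 0.13, limma adjusted p = 8.45e-05). Maff, a small Maf factor, Junb and Fosl2, which are AP-1 subunits, and Myc, a driver of growth, differed by -2.49 ± 0.34, -1.70 ± 0.27, -1.66 ± 0.17 and -1.84 ± 0.31. Each of the 5 kept its call without any single array.

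Of the interferon-induced genes more were lower than higher after the last dose. At rest most were higher in pretreated cells at an unadjusted limma p under 0.05. The counts of calls rested on single arrays. After LPS 2 of 40 measured members were higher and 8 lower in restimulated than in LPS once cells, with a median of -0.82, or 2 and 4 with a median of -0.45 without the dim array. The lower count was 3 without restimulated B or LPS once C, 4 without LPS once A, 5 without pretreated and rested A or C and 13 without untreated A. The higher count was 0 without restimulated B or LPS once C and 1 without restimulated A or LPS once B. At rest 15 were higher in pretreated than in untreated cells, with a median of 1.76, where 0.473% of all genes were called higher. That count was 24 without restimulated C, 4 without pretreated and rested A or B, 2 without pretreated and rested C, 3 without untreated A or C and 9 without untreated B. The difference between the comparisons was called for 19, all towards lower after LPS, against 1.68% of all genes lower and 1.24% higher. It was called for 4 without restimulated B or untreated C, 5 without LPS once C or pretreated and rested A or C, 3 without pretreated and rested B and 12 without untreated A. At an unadjusted limma p under 0.05, 36 of the 40 were higher at rest and 0 lower. Of all 18193 genes 1257 were higher and 1403 lower at rest at that p. After LPS 20 of the 40 were lower and 2 higher at that p. The difference was lower for 38 and higher for 0, where 1835 of all genes were lower and 1791 higher. Gbp3, a guanylate-binding protein that attacks intracellular pathogens, had 688, 521 and 238 units in restimulated cells, against 3984, 2010.3 and 2297 in LPS once cells (-2.54 ± 0.30, limma adjusted p = 0.00204). Pretreated and rested cells had 415 to 932 units, a range that overlapped the restimulated arrays, against 163 to 229.7 in untreated cells. Ifih1, a sensor of viral RNA, and Irf1, an interferon regulatory factor, differed by -2.17 ± 0.26 and -1.57 ± 0.28.

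The higher members were Irf7 and Bst2. Irf7, which drives interferon production, had 5148, 4458 and 3179 units in restimulated cells, against 2809.5, 882 and 950.5 in LPS once cells (1.64 ± 0.37, limma adjusted p = 0.0231). LPS once replicate A was close to the restimulated arrays, and the call was lost without restimulated A or B or LPS once B or C, with adjusted p from 0.0642 to 0.0992. Bst2, which tethers budding viruses, had 4623, 4560.1 and 2554 units in restimulated cells, against 2591, 1058 and 1129 in LPS once cells (1.36 ± 0.27), with overlapping groups, and lost its call without restimulated B (adjusted p = 0.0598) or LPS once C (0.0627). Genes of MHC class I presentation had 1 of 16 lower, Nlrc5, and 0 higher, with 7 higher at an unadjusted p under 0.05 (limma). Nlrc5, which switches on class I genes, differed by -1.68 ± 0.40 and lost its call without restimulated B, LPS once A, B or C, or pretreated and rested A or C, with adjusted p of up to 0.113. Of 11 genes of MHC class II presentation limma called none, 2 were higher and 3 lower at an unadjusted p under 0.05, against 14.6% and 15.6% of all genes. Without restimulated C 1 was called higher, and without pretreated and rested B 1 was called lower. H2-Eb1, an antigen-presenting chain, had 1417, 289 and 1215 units in restimulated cells and 2085, 1715 and 2973 in LPS once cells (-1.45 ± 0.41).

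Antimicrobial, acute phase and complement genes had 3 of 26 members higher and 1 lower, also without the dim array, and a median of -0.0073. Without LPS once A 5 were higher, and without restimulated A or LPS once C 2 were lower. Cfb, complement factor B of the alternative pathway, had 3648, 6113 and 3740.4 units in restimulated cells, against 1024, 679 and 313 in LPS once cells (2.82 ± 0.39, limma adjusted p = 0.00358). Pretreated and rested cells already held 3577, 6214 and 4469 units, against 24.6, 26.4 and 39.1 in untreated cells. Cfp, which encodes properdin and stabilises the same pathway, had 7381, 6568 and 6612 units in restimulated cells, against 3529, 2588 and 2314 in LPS once cells (1.30 ± 0.12, limma adjusted p = 0.000638). Slpi, described above, was the third. The lower member was S100a9, a calcium-binding protein of neutrophils and monocytes, with 74.6, 592 and 229 units in restimulated cells, against 165, 1546 and 689.6 in LPS once cells (-1.30 ± 0.24). Its groups overlapped, replicate B was the highest in both groups as it was for the neutrophil marker Ngp, and the part of neutrophils in it was not tested. Lcn2, which withholds iron from bacteria, had 4226, 11346 and 8238 units in restimulated cells and 4170.1, 4731 and 2206 in LPS once cells (1.06 ± 0.41, limma adjusted p = 0.139), and was called without LPS once A (1.63, adjusted p = 0.00909).

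Pattern recognition and scavenger receptors had 2 of 34 members higher and 1 lower, or 3 and 1 without the dim array, and 2 were lower without LPS once A. Marco, a scavenger receptor that binds bacteria, had 7265, 5269 and 1908 units in restimulated cells, against 1131, 603 and 774 in LPS once cells (2.35 ± 0.45, limma adjusted p = 0.0124). The groups did not overlap, replicate C was the lowest restimulated array, and the call was lost without LPS once B (adjusted p = 0.0525). Clec4a2, an inhibitory C-type lectin, had 4562, 2818 and 2928 units in restimulated cells, against 1850.3, 1039 and 956 in LPS once cells (1.44 ± 0.18, limma adjusted p = 0.0023). Olr1, the receptor of oxidised low-density lipoprotein, was the lower member, with 61.5, 81.4 and 49.5 units in restimulated cells, against 806, 364 and 862 in LPS once cells (-3.04 ± 0.31, limma adjusted p = 0.00108). Fpr2, a formyl peptide receptor, had 7851, 7383 and 7166 units in restimulated cells and 5851, 5624 and 5922 in LPS once cells. The restimulated arrays were the higher ones, by 0.36 ± 0.22, and the difference did not pass the test (limma adjusted p = 0.355).

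Several well-known LPS-induced genes did not pass the test in this comparison. Il1b, a pyrogenic cytokine, had 9085, 11977 and 11273 units in restimulated cells and 13662, 15002 and 14765 in LPS once cells (-0.43 ± 0.68, limma adjusted p = 0.748). All restimulated arrays of Il1b lay below all LPS once arrays, both groups lay among the brightest genes of the plot of levels after LPS, and in pretreated and rested cells replicate A stood far below B and C, with 437, 4820.4 and 2938 units. Ccl5, a chemokine for T cells, had 11274, 11216 and 9134 units in restimulated cells and 11407, 10751 and 10508 in LPS once cells, and its difference of -0.05 ± 0.15 changed sign with the scaling, at 0.02 after quantile normalization. Ptgs2, the inducible enzyme of prostaglandin synthesis, had 459, 2953 and 1443 units in restimulated cells and 5499.7, 7905 and 7655 in LPS once cells (-2.45 ± 0.72, limma adjusted p = 0.0612). Its groups did not overlap, and it was called lower without restimulated C (-3.05, adjusted p = 0.0312), LPS once B (-3.12, adjusted p = 0.0453) or untreated C (adjusted p = 0.0420). Cxcl10, an interferon-induced chemokine, had 4648, 2460.0 and 1410.1 units in restimulated cells and 10536, 5896 and 8094 in LPS once cells (-1.65 ± 0.47, limma adjusted p = 0.0549), and was called lower without restimulated A, LPS once B or pretreated and rested A or B, with adjusted p from 0.0321 to 0.0420. Nos2, the inducible nitric oxide synthase, was dim, with 25.8, 35.0 and 29.5 units in restimulated cells and 48.2, 86.1 and 45.2 in LPS once cells, and stayed under the 2-fold minimum (-0.68 ± 0.16).

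Enzymes of arginine, itaconate and prostaglandin metabolism had 5 of 23 members lower and 1 higher, also without the dim array, and 3 lower without restimulated B or LPS once C. Ch25h, which makes an oxysterol from cholesterol, had 214, 284 and 239 units in restimulated cells, against 2479, 2034 and 4248 in LPS once cells (-3.43 ± 0.31, limma adjusted p = 0.000661). Odc1, which starts polyamine synthesis from ornithine, had 416, 397 and 173 units in restimulated cells, against 2049, 1932 and 1699 in LPS once cells (-2.56 ± 0.21), and Pla2g4a, the phospholipase that frees arachidonic acid, differed by -1.43 ± 0.19. Arg1, which splits arginine and is a marker of alternative activation, was the higher member, with 209.8, 1076 and 94.2 units in restimulated cells, against 48.7, 16.6 and 12.4 in LPS once cells (2.94 ± 0.72, limma adjusted p = 0.032). Replicate B stood far above A and C, the groups did not overlap, and the call was lost without restimulated A or B, LPS once B or C, pretreated and rested C or untreated A, with adjusted p from 0.0533 to 0.11.

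Glycolysis and hypoxia-induced genes had 5 of 23 lower and 1 higher, also without the dim array, with a median of -0.28. Pfkfb3, which makes the activator of phosphofructokinase, had 884, 689 and 539 units in restimulated cells, against 6795, 6655 and 4712 in LPS once cells (-3.08 ± 0.22, limma adjusted p = 0.000355). Hk2, a hexokinase, and Ndrg1, a hypoxia-induced gene, differed by -2.10 ± 0.23 and -2.08 ± 0.18. The higher member was Hk3, another hexokinase, at 1.02 ± 0.21, and it was not called without restimulated A or B or LPS once A or B (adjusted p of up to 0.0637). Mitochondrial genes of the citric acid cycle and of respiration had a median of 0.26, or 0.38 without the dim array. Limma called 1 of 32 higher and 0 lower, and placed 17 higher and 0 lower at an unadjusted p under 0.05, against 14.6% and 15.6% of all genes. Sdhb, a subunit of succinate dehydrogenase, had 3147, 3157 and 2909.7 units in restimulated cells, against 1573, 1344 and 1435 in LPS once cells (1.08 ± 0.07, limma adjusted p = 0.000221), and 2649.6 to 2745 in untreated cells. For 14 of the 32 genes all restimulated arrays lay above all LPS once arrays, which held for 11.7% of all genes.

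Lipid genes showed 4 of 28 members higher and 2 lower, also without the dim array. Scd2, which puts a double bond into saturated fatty acids, had 546, 1028 and 259 units in restimulated cells, against 100, 195 and 22.5 in LPS once cells (2.47 ± 0.29, limma adjusted p = 0.0019), and letter C was the lowest in both groups. Fads1, which adds a further double bond, had 995, 1106 and 839 units in restimulated cells, against 172, 254 and 226 in LPS once cells (2.10 ± 0.17, limma adjusted p = 0.00051). Nr1h3, the liver X receptor alpha, had 1010.0, 386 and 563 units in restimulated cells, against 236, 108 and 276 in LPS once cells (1.57 ± 0.21, limma adjusted p = 0.00329). Fabp4, a fatty acid carrier, had 111, 344 and 24.7 units in restimulated cells, against 1781, 1197 and 979 in LPS once cells (-3.40 ± 0.51), and replicate C was the lowest of them, the difference being -2.84 without it. Lss, which closes the sterol rings, differed by 1.01 ± 0.22 and was not called without restimulated A or B or LPS once B or C. Pparg, a lipid-sensing nuclear receptor, had 71.5, 23.6 and 48.0 units in restimulated cells, against 126, 78.3 and 132 in LPS once cells (-1.05 ± 0.19), and untreated cells had 420.4 to 633. It lay at the 2-fold minimum and was not called without restimulated B (-0.98), LPS once B (-0.99) or LPS once C (adjusted p = 0.0532). Metallothioneins, which bind zinc and copper, were lower, with differences of -3.15 ± 0.44 for Mt2 and -1.57 ± 0.30 for Mt1, and were the 2 lower genes among 22 of antioxidant and metal handling, where limma called 0 higher and placed 6 higher at an unadjusted p under 0.05. Without restimulated C 1 was called higher.

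Alternative activation genes had 6 of 22 called lower, or 3 without the dim array, and 1, Arg1, called higher. The lower count was 2 without restimulated B or LPS once C and 3 without LPS once B. The median was -0.52, and at an unadjusted limma p under 0.05 11 were lower and 2 higher. Proteases and coagulation genes had 6 of 26 lower and 1 higher, or 6 and 2 without the dim array. Mmp13, a collagenase, had 411, 1683 and 463 units in restimulated cells, against 6957, 6792 and 7146 in LPS once cells (-3.31 ± 0.49, limma adjusted p = 0.00466), whereas Mmp9, a gelatinase, had 723, 777 and 408 in restimulated cells, against 186, 118 and 37.2 in LPS once cells (2.48 ± 0.33, limma adjusted p = 0.00297). The 2 metalloproteinases thus differed in opposite directions between the same cells. Plat, which activates plasminogen, Plaur, the receptor of the other plasminogen activator, and F3, which starts coagulation, differed by -3.63 ± 0.37, -2.76 ± 0.31 and -2.46 ± 0.13. F3 had 12.1, 11.3 and 11.3 units in restimulated cells, against 135, 173 and 106 in LPS once cells, and 11.1 to 14.7 in untreated cells.

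Survival and death genes had 6 of 25 lower and 2 higher, or 5 and 2 without the dim array. Gadd45b, a stress-response protein, Bcl2l11, which promotes death, Casp4, which senses LPS inside cells, and the inflammasome sensor Nlrp3 differed by -2.92 ± 0.33, -2.31 ± 0.26, -1.98 ± 0.22 and -1.57 ± 0.27. Txnip, which restrains glucose uptake, and Ripk3, a kinase of necroptosis, were higher by 1.17 ± 0.21 and 1.05 ± 0.13, and both fell under the 2-fold minimum without LPS once C (0.96 and 0.89). Cell cycle genes had 7 of 39 lower and 1 higher, or 9 and 2 without the dim array, and 2 were higher without LPS once A. Their median was -0.20 after LPS and -0.40 at rest, in pretreated and rested minus untreated cells. At an unadjusted limma p under 0.05, 13 were lower and 6 higher after LPS. At rest 20 were lower and 1 higher, where 1403 of all 18193 genes were lower and 1257 higher. Mki67, a proliferation marker, and Cdkn1a, an inhibitor of the cycle, were both lower, with differences of -2.08 ± 0.38 and -1.93 ± 0.22, and Gmnn, which encodes geminin, was higher, with one of 1.92 ± 0.22.

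Chromatin modifiers had 4 of 30 lower and 2 higher, or 3 and 3 without the dim array. Kdm6b, a demethylase of histone H3 that LPS induces, had 171, 118 and 210.1 units in restimulated cells, against 466, 845 and 979 in LPS once cells (-2.06 ± 0.30, limma adjusted p = 0.00419), and Tet2, which oxidises methylated cytosine, differed by -1.84 ± 0.20. Dnmt1, which maintains DNA methylation, had 400.2, 668 and 297 units in restimulated cells, against 139.6, 156 and 151 in LPS once cells (1.44 ± 0.22, limma adjusted p = 0.00516), and Hdac5, a histone deacetylase, differed by 1.36 ± 0.18. For both, untreated cells were brighter than either group, at 804 to 959.6 and 787 to 896 units. Of 19 macrophage identity genes 2 were higher and 0 lower (at an unadjusted limma p under 0.05, 9 and 3). They were Itgam, given above, and Mertk, a receptor for the uptake of dead cells, with 725, 391 and 176 units in restimulated cells, against 221, 85.5 and 105 in LPS once cells (1.44 ± 0.37). The call of Mertk was lost without restimulated A or B, any LPS once array, pretreated and rested A or C or untreated B, with an adjusted p of up to 0.133, and 1 gene of the list was lower without restimulated B or pretreated and rested A. Of 10 housekeeping genes limma called none, with 2 higher and 1 lower at an unadjusted p under 0.05. The widest difference was that of Gusb, 0.55 ± 0.12.

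**Figure D4:**
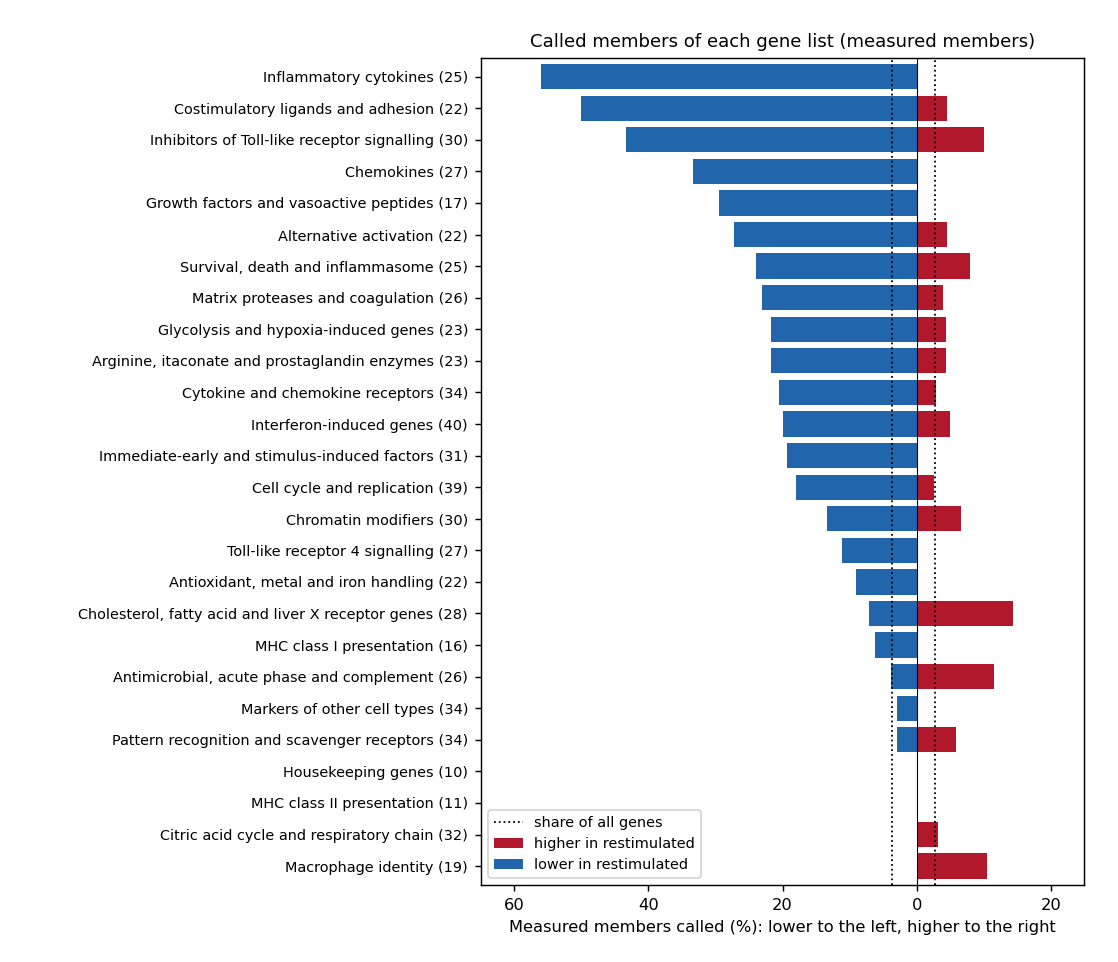
Share of the measured members of each of 26 gene lists called higher (red, to the right) and lower (blue, to the left) in restimulated cells, with the number of measured members in parentheses. Dotted lines mark the shares of all genes, 2.65% higher and 3.68% lower. Inflammatory cytokines reach the largest share of lower members and the cholesterol, fatty acid and liver X receptor list the largest share of higher ones.

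The same fit gave the level at rest, pretreated and rested minus untreated cells, which shares no array with the level after LPS. Both comparisons use the same estimate of the spread of each probe set, so their calls are not independent. At rest 86 genes were higher (0.473%) and 83 lower (0.456%), far fewer than after LPS. Of the 482 genes higher after LPS 27 were also higher at rest, 5.60% of them and 31.4% of the 86. Of the same 482 genes 0 were lower at rest. Of the 670 genes lower after LPS 32 were also lower at rest, 4.78% of them and 38.6% of the 83. A further 8 of the 670 were higher at rest. At an unadjusted limma p under 0.05, 131 of the 482 genes were higher at rest and 13 lower. At that p 207 of the 670 were lower at rest and 32 higher. Over all 18193 genes 1257 were higher and 1403 lower at rest at that p. The counts of calls at rest depended on single arrays, with 30 to 111 higher and 27 to 145 lower genes when 1 array was left out. The higher count moved by over 1.5 times without pretreated and rested B (42) or C (30) or untreated A (38), B (48) or C (39). The lower count did so without restimulated C (145), pretreated and rested A (47), B (42) or C (30) or untreated A (33), B (53) or C (27).

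Both comparisons had Cd83, Noct and Zfp36 lower. Noct, a nocturnin that follows the circadian clock, had 435, 126 and 239 units in restimulated cells, against 2823, 4514 and 5282 in LPS once cells (-4.01 ± 0.36), and differed by -2.04 ± 0.36 at rest (limma adjusted p = 0.0472). Its call at rest was lost without LPS once C or any array of the resting groups, and that of Zfp36 without any array of the resting groups, while Cd83 kept its call in all 12 fits. Ly6i, Slpi, Bst1, Smpdl3b, Pilra, Marco, Mmp9, Cfb and Irf7 were higher in both, with differences at rest of 4.44, 4.97, 4.28, 2.99, 3.63, 4.97, 2.66, 6.67 and 3.74. Of these, 6 kept the call at rest without any single array. Bst1 lost it without pretreated and rested B or C or any untreated array, Mmp9 without pretreated and rested B or C or untreated C, and Smpdl3b without restimulated A or B, LPS once C, pretreated and rested B or C or any untreated array. Il1rn, chosen after its values were seen, was among the 8 genes higher at rest and lower after LPS, and kept both calls without any single array. Il1rn, which blocks the interleukin 1 receptor, had 1226, 3016 and 635 units in restimulated cells, against 7033, 7842 and 4201 in LPS once cells (-2.19 ± 0.24, limma adjusted p = 0.00157). At rest it had 1165, 3054 and 868 units in pretreated cells, against 201, 339.9 and 111 in untreated cells (2.78 ± 0.24), so the pretreated cells held similar intensities with and without the last dose, between the untreated and the LPS once arrays.

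**Figure D5:**
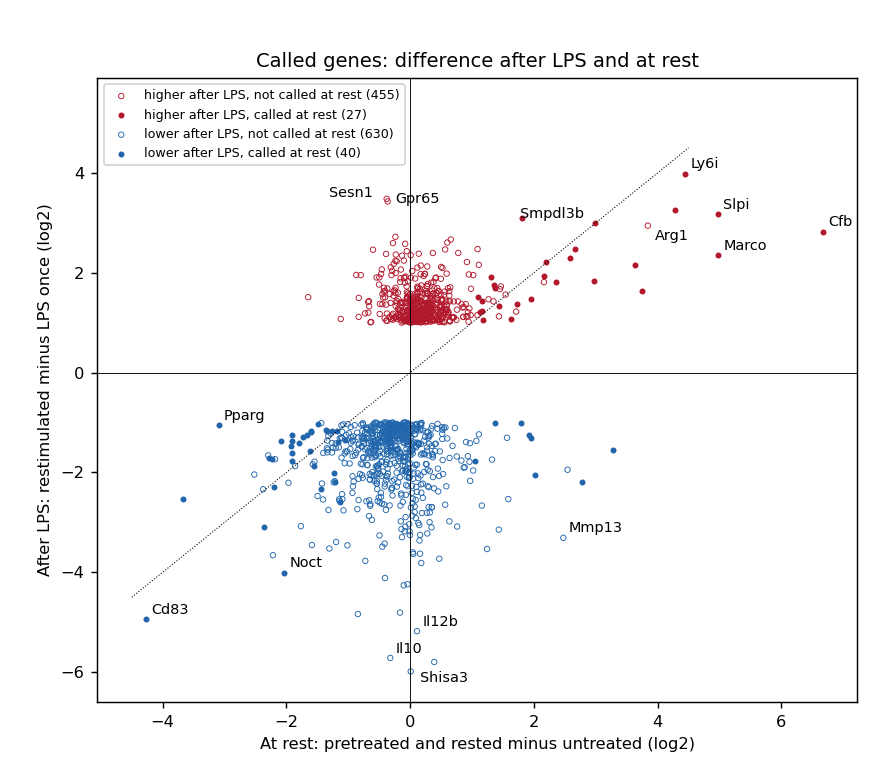
Log2 difference after LPS (restimulated minus LPS once, vertical axis) against the difference at rest (pretreated and rested minus untreated, horizontal axis) for the 1152 genes called after LPS. Filled points were also called at rest, 27 of the higher and 40 of the lower genes, and the dotted line marks equal differences. Most points lie near 0 on the horizontal axis, while Ly6i, Slpi, Cfb and Marco lie far to the right and Cd83 to the left.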

How the data were processed

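Per the labels, TriFast served to isolate the RNA of 12 macrophage cultures, which was biotin-labelled by the Affymetrix standard procedure. The deposited table holds 1 intensity on a linear scale for each of 45101 probe sets and each array. The authors' program, background correction and scaling were not given in the sources used here. The number of arrays limits the precision. Genes were named through the platform table, with symbols updated by Entrez identifier from RefSeq (34741 of 34945 probe sets with 1 symbol, the other 204 keeping theirs). Left out were 64 controls, 932 probe sets with several symbols and 9160 with none. Where a gene had several probe sets, the one with the highest mean of 12 arrays stood for it.

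Intensities were taken as deposited, and 16 was added before log2. Limma 3.58.1 in R 4.3.3 fitted 4 group means and the replicate letter as a block to all 12 arrays, with Benjamini-Hochberg adjustment over 34945 probe sets. A call needed an adjusted p under 0.05 and at least 2-fold. The letters come from the titles. After group means were removed, the 18 pairs of arrays that share a letter correlated at 0.22 to 0.61, so the letters were taken to pair the cultures. The 36 pairs that do not share one correlated at -0.44 to -0.04. Deviations within a group sum to 0, so values below 0 between letters follow from the positive ones and are no separate support. The fit was tested on simulated data with wide changes in brighter probe sets and no dim array. That test did not cover dim genes, changes near 2-fold or a dim array.

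Named were the 20 widest changes in each direction among called genes with no overlap, up to 5 called members per list and direction (2 members where none was called), and 16 genes fixed by name. The members and the 26 gene lists, with 655 of 724 genes measured, were chosen with earlier results of these data known. Alternatives were other scalings, added constants, array weights, filters, the 6 arrays alone, no replicate block and each array left out. Promoter windows came from RefSeq.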

Additional observations from a re-analysis of the deposited data

Results flagged for a closer look

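The difference between tolerant and naive cells was compared with and without the last dose, as the level after LPS minus the level at rest on the log2 scale. Of 54 genes, the widest changes and those fixed by name, limma called this difference for 35, 23 negative and 12 positive, against 1.24% of all genes higher and 1.68% lower. Most of these genes were chosen for their values after LPS, which enter this difference. Among genes lower after LPS it was -6.19 for Rnd1, -5.996 for Shisa3, -5.40 for Il10, -5.29 for Il12b, -4.78 for AA467197, -4.64 for Edn1, -4.20 for Il15, -4.20 for Rhou, -4.16 for Adm, -3.99 for Cd40, -3.99 for Vcam1, -3.79 for Adamts4, -3.71 for Dusp2, -3.68 for Plat, -3.64 for Tnfsf9, -3.61 for Il6, -3.05 for Errfi1 and -2.22 for Ezr. At rest these genes differed little, the widest being -1.31 for Ezr and 1.24 for AA467197.

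Among genes whose value at rest was above that after LPS, the differences were -5.24 for Ccl5, -5.22 for Lcn2, -3.86 for Cxcl10, -3.85 for Cfb and -3.74 for Fpr2. Ccl5 had 11274, 11216 and 9134 units in restimulated cells and 11407, 10751 and 10508 in LPS once cells, and at rest 11494, 11218 and 10339 in pretreated cells, against 256, 249.5 and 369.5 in untreated cells. It was thus bright in 3 groups and dim in untreated cells. Fpr2 had 2828, 5903 and 4487 units in pretreated and rested cells, against 259, 227 and 208 in untreated cells.

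Positive differences were 1.29 for Sirpb1a, 1.62 for Ahrr, 1.90 for Arrb1, 2.00 for AI467606, 2.01 for Nbeal2, 2.49 for Mknk2, 2.66 for Tmem86a, 2.87 for N4bp2l1, 2.96 for Zfp36l2, 3.06 for Cd300lb, 3.79 for Gpr65 and 3.86 for Sesn1. Sesn1 and Gpr65 were brighter in both resting groups than on any LPS once array. The call was kept without any single array for 20 of the 35 genes. It was lost without 1 to 3 of the 12 arrays for Vcam1, Cfb, Plat and N4bp2l1, in each case an untreated array, and without 7 or more for AA467197, Cxcl10, Il6, Errfi1, Ezr, Sirpb1a, Arrb1, AI467606, Nbeal2, Zfp36l2 and Cd300lb. Groups of 3 were not tested for single arrays that stand apart.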

How the results depend on the processing

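Of 147 named genes 133 were called, 26 of them under all 23 alternatives and 94 under all but the fit of the 6 arrays alone. Without restimulated replicate C 12 of the 133 lost their call. With no replicate block the level after LPS had 615 probe sets higher and 1098 lower, and 442 genes higher and 572 lower, close to the 676, 1248, 482 and 670 with the block. No replicate block left 47 genes higher and 48 lower at rest. The 6 arrays alone gave 85 probe sets higher and 166 lower, and 65 genes higher and 97 lower. Adding 64 in place of 16 gave 388 probe sets and 288 genes higher, 55 genes higher and 47 lower at rest, and 121 genes with a higher difference between the levels, and adding 1 gave 139 lower at rest. Array weights gave 1204 probe sets and 803 genes higher, 157 higher and 205 lower at rest and 625 with a higher difference. With 1 probe set per gene 686 probe sets were lower. Scaling to the 75th percentile gave 155 higher and 133 lower at rest, and 371 higher and 501 lower differences. A mean of at least 50 units gave 144 higher and 158 lower at rest, and 347 higher and 459 lower differences. Higher differences numbered 374 after quantile normalization and 436 without both letter C arrays after LPS. The cause of these moves was not tested, except that fewer arrays or probe sets entered some fits.

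With each array left out in turn, probe sets ranged from 415 to 1168 higher and 861 to 1411 lower, and genes from 308 to 759 and 475 to 705. At rest genes ranged from 30 to 111 higher and 27 to 145 lower, and for the difference from 52 to 571 and 142 to 317. Without restimulated replicate C the counts were 1168 and 957 probe sets and 759 and 540 genes after LPS. Values that changed sign were those of genes near 0. Ccl5 was 0.0153 after quantile normalization, 0.11 with array weights and 0.0221 without both letter C arrays, and ranged from -0.13 to 0.0817 with 1 array left out. Irak3 ranged from -0.075 to 0.38 and Tlr4 from -0.21 to 0.36, with Tlr4 at -0.11 and -0.07 without restimulated A and LPS once A. Genes under about 50 units have folds that the added 16 units compress, so their sizes are limits of this scale.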

Other observations

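Mir155hg, the host transcript of miR-155, which is known to be induced by LPS, was chosen after its values were seen. It had 92.3, 245 and 55.4 units in restimulated cells, against 687, 1248 and 1183 in LPS once cells, and 11.6 to 11.8 in untreated cells. All restimulated arrays lay between the untreated and the LPS once arrays, and the difference was -3.02 ± 0.34 (limma adjusted p = 0.00173). Without restimulated replicate C it was -2.58 ± 0.26 (limma adjusted p = 0.00137). The mature microRNA was not measured on these arrays.

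Of the called genes 729 have more than 1 probe set, and 359 of these have at least 2 called the same way. Pnkd, chosen after its values were seen, had 1 probe set called lower at -1.87 and another called higher at 1.31.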
